A study of Homo sapiens with 14 samples.

Results

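SK-N-BE2 is an established human neuroblastoma line in which MYCN is amplified. Polyadenylated RNA was sequenced from 2 wild-type libraries (WT, replicates 1 and 2) and from 2 libraries labelled TET2 knockout 1 (replicates 1 and 2), and the comparison of knockout 1 with WT is described here. These 4 libraries are 4 of the 14 in the series. They were taken by their titles, and all genes of the count files were used. The WT libraries and those labelled TET2 knockouts 1, 2 and 3 carried the same batch label, and the labels give every one of these groups as untreated. How the knockouts were made, and whether a knockout number stands for a clone or a pool, is not stated in the labels, so knockout 1 is a group known by its label and number. The other labelled knockouts (2 libraries each) were part of the same fit, so they shaped the filter, the normalisation and the estimate of spread. Their own values are given mainly where knockout 1 was tested against them directly.

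TET2 is a dioxygenase that oxidises 5-methylcytosine in DNA to 5-hydroxymethylcytosine, an intermediate of active DNA demethylation that is also found at regulatory elements. TET1 and TET3 carry out the same reaction, while DNMT1, DNMT3A and DNMT3B place methyl groups on cytosine. Polycomb repressive complex 2 (PRC2), which the title of the series names, methylates histone H3 at lysine 27 and keeps developmental genes silent. Neuroblastoma cells are commonly described as adrenergic, with genes of sympathetic neurons, or mesenchymal, with genes of matrix and migration.

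Total counts were 55013610 and 56379494 in the WT libraries and 52781251 and 56836362 in the knockout 1 libraries. Most counts stood for 1 read of a pair, since 79% to 80.5% of counts between 1 and 10 were even in these libraries. Levels are given in CPM, counts per 1000000 of the normalised library total, always in the order replicate 1, replicate 2, and differences as log2 fold changes of knockout 1 against WT, negative where knockout 1 was lower, with their standard error (SE). Adjusted p-values are those of edgeR's quasi-likelihood test after Benjamini-Hochberg adjustment over 14061 genes tested, and a gene was called at an adjusted p under 0.05. The labels do not say that replicates were separate cultures, so the p-values measure the spread between replicate libraries, which may be technical. That spread was estimated from all 8 libraries of the fit and was largely shared over genes. Mitochondrial genes held 2.6% and 2.65% of counts in WT and 2.05% and 2.03% in knockout 1.

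The targeted gene was examined before the others. TET2 (chromosome 4, 105145875 to 105279816, plus strand) measured 70.8 and 64.8 CPM in the WT libraries, while those labelled knockout 1 had 80.4 and 76.6 CPM. Both knockout 1 libraries lay above both WT libraries, by 0.21 on the log2 scale (SE 0.05, adjusted p 6.64e-04), although the call was lost without WT replicate 2 (adjusted p 0.102). Counts summed over a gene carry no trace of an edit within it, so the loss of TET2 could not be checked, and every direction below rests on the label. Adrenergic markers were present, with HAND2 at 584 and 601 CPM and MYCN at 4599.8 and 4678 CPM in WT.

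Knockout 1 differed from WT by a small number of deep losses and many small shifts. Of the 14061 genes tested, 2462 were called (17.5%), 1095 higher (7.79%) and 1367 lower (9.72%). The median log2 fold change was 0.19 among those called higher and -0.30 among those called lower. Changes of at least 2-fold were mainly losses, with 276 genes lower (1.96%) and 35 higher (0.249%), and at least 4-fold with 120 lower and 11 higher. The genes lost by at least 2-fold were weakly expressed, with a median of 2.01 CPM in WT against 26.4 CPM over all genes tested, and 43 of the 276 had at least 10 CPM in WT. The libraries of the 2 groups did not overlap for 7621 of the genes tested (54.2%). The number of calls rested on the number of libraries, since 1619 genes were called without WT replicate 1 and 1375 without knockout 1 replicate 2.

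**Figure D1:**
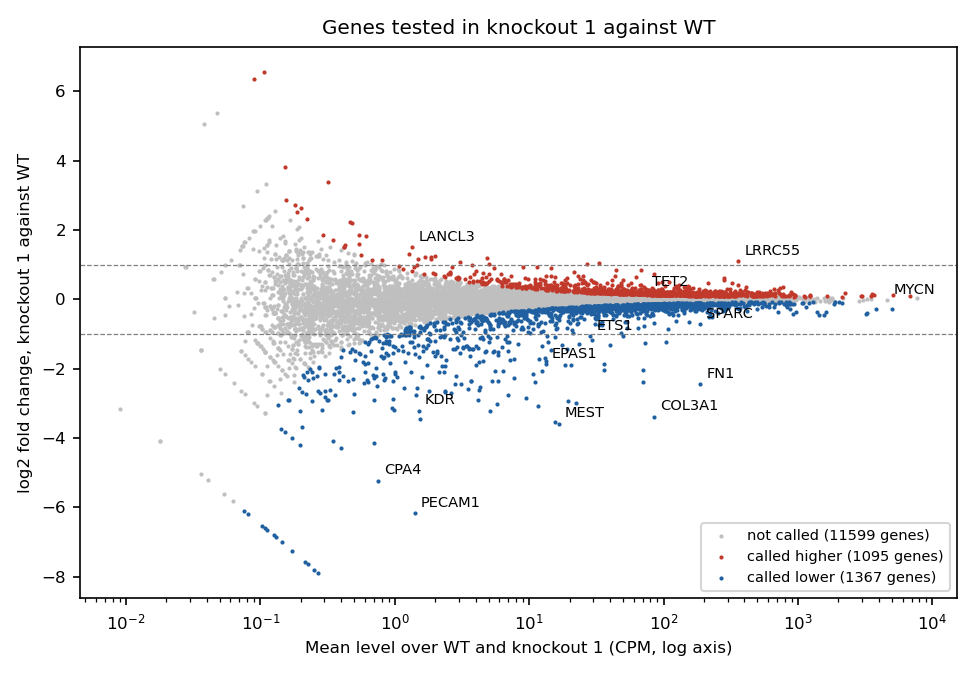
Each point is 1 of the 14061 genes tested, with its mean level over the WT and knockout 1 libraries (CPM, log axis) against its log2 fold change, and dashed lines mark 2-fold. The diagonal streaks at the left edge are genes with 0 counts in 1 group, whose fitted change is no measure of size. The falls of MEST, COL3A1 and FN1 and the rise of LRRC55 are among those labelled.

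Changes were ranked among called genes with at least 1 CPM in the higher group whose libraries did not overlap between WT and knockout 1. The deepest falls included genes of blood vessels, matrix and immune defence. PECAM1, an adhesion receptor of endothelial cells (chromosome 17, 64319415 to 64413776, minus strand), had 144 and 165 counts in WT and 2 and 2 in knockout 1, or 76.2 times fewer (95% interval from counting error, 20.8 to 635). CPA4, a carboxypeptidase (chromosome 7, 130293134 to 130324180, plus strand), had 90 and 72 counts against 2 and 2, a ratio of 39.8 (10.7 to 335). ART4, which carries the Dombrock blood group antigens (chromosome 12, 14825569 to 14843526, minus strand), had 78 and 70 counts against 6 and 2, a ratio of 18.2 (6.82 to 68.5), and was not called by DESeq2 (adjusted p 0.21). The intervals were taken on counts divided by 2 and cover counting error only. In these 3 genes the knockout 1 libraries were close to the limit of detection.

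MEST, an imprinted gene expressed from the paternal allele that encodes a hydrolase-like protein (chromosome 7, 130486171 to 130506465, plus strand), was far better measured. It went from 30.03 and 31.1 CPM in WT to 3.004 and 2.12 CPM in knockout 1 (log2 fold change -3.58, SE 0.12, adjusted p 8.96e-76). MEST lies near CPA4 on chromosome 7, and its exons overlap COPG2 and MESTIT1 on the opposite strand, which counting without strand cannot separate. PTX3, a secreted pentraxin that binds microbes and matrix (chromosome 3, 157436850 to 157443633, plus strand), fell from 28.8 and 28.2 CPM to 2.43 and 2.49 CPM (log2 fold change -3.53, SE 0.12, adjusted p 1.85e-73). Its exons overlap VEPH1 on the opposite strand. COL3A1, the chain of type III collagen (chromosome 2, 188974373 to 189012746, plus strand), fell from 158 and 152 CPM to 15.1 and 14.6 CPM (log2 fold change -3.38, SE 0.06, adjusted p 3.02e-128), and the replicates of each group lay close together. CRIM1, a membrane protein that binds bone morphogenetic proteins (chromosome 2, 36355778 to 36551135, plus strand), fell from 21.6 and 20.1 to 2.51 and 2.47 CPM.

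The other genes of this set were weaker in WT. IL1R1, the signalling receptor for interleukin-1 (chromosome 2, 102064544 to 102179874, plus strand), had 9.42 and 9.01 CPM in WT and 1.103 and 0.883 CPM in knockout 1 (log2 fold change -3.22). KDR, a receptor for vascular endothelial growth factor (chromosome 4, 55078481 to 55125595, minus strand), had 2.44 and 3.03 CPM in WT and 0.266 and 0.318 CPM in knockout 1 (-3.21 on the log2 scale). IFITM2, an interferon-induced membrane protein that restricts viruses, fell by 3.46 on the log2 scale, SP100, a component of nuclear bodies, by 3.19, and CAVIN2, a coat protein of caveolae, by 3.13. Exons of IFITM2 overlap those of IFITM1 on the same strand, so reads of the pair are uncertain. By the rule of choice, no knockout 1 library reached a WT library in these 12 genes.

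**Figure D2:**
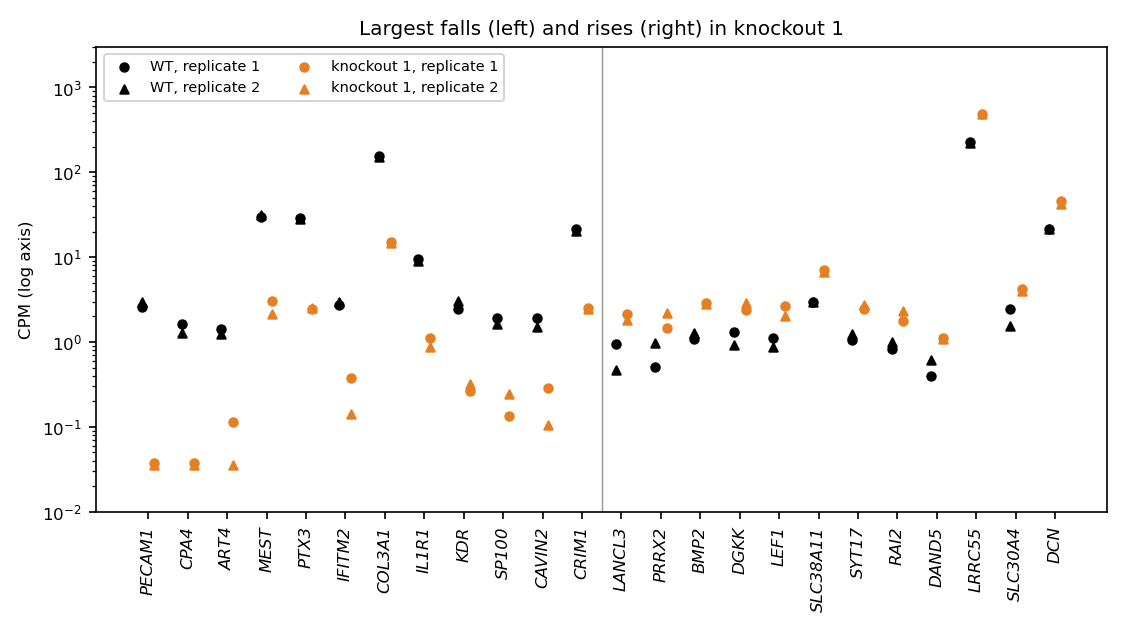
CPM (log axis) of the 12 largest falls and the 12 largest rises among called genes of at least 1 CPM without overlap between the groups. Circles stand for replicate 1, triangles for replicate 2, black for WT and orange for knockout 1. Falls span from PECAM1, with 2 counts in each knockout 1 library, to COL3A1, and in knockout 1 the rises lie between 1 and 10 CPM apart from LRRC55 and DCN.

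Rises were smaller. LRRC55, a leucine-rich repeat protein that modulates BK potassium channels (chromosome 11, 57181747 to 57191717, plus strand), had the highest level, 228 and 224 CPM in WT against 489 and 489 CPM in knockout 1 (log2 fold change 1.11, SE 0.03, adjusted p 2.05e-83). DCN, the small matrix proteoglycan decorin (chromosome 12, 91140484 to 91182824, minus strand), rose from 21.5 and 21.5 to 45.9 and 42.7 CPM (log2 fold change 1.04, SE 0.07, adjusted p 1.43e-33), against the direction of most other matrix genes. SLC38A11, a member of a family of amino acid transporters, rose from 2.98 and 2.94 to 6.98 and 6.69 CPM (1.20 on the log2 scale), and SLC30A4, a zinc transporter, from 2.44 and 1.53 to 4.24 and 4.04 CPM (1.06). The rule of choice required the 2 knockout 1 libraries of each rise to lie above the WT libraries.

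The remaining rises concerned genes near 1 CPM in WT. LANCL3 (chromosome X, 37571569 to 37684463, plus strand) had 0.946 and 0.464 CPM in WT and 2.17 and 1.84 CPM in knockout 1. Its rise, 1.5 on the log2 scale, was the largest among called genes of at least 1 CPM without overlap between the groups. The homeobox gene PRRX2 (chromosome 9, 129665647 to 129722674, plus strand) measured 0.509 and 0.963 CPM in WT against 1.45 and 2.19 CPM in knockout 1 (1.31), and the diacylglycerol kinase gene DGKK (chromosome X, 50365409 to 50470825, minus strand) 1.31 and 0.927 CPM in WT against 2.36 and 2.86 CPM in knockout 1 (1.23). Among signalling genes, the ligand BMP2 rose by 1.24, the transcription factor LEF1, which acts with beta-catenin, by 1.22, and DAND5, a secreted antagonist of BMP and Nodal ligands, by 1.13 on the log2 scale. SYT17 rose by 1.17 and RAI2 by 1.16. PRRX2, RAI2 and DAND5 lost their call with some library left out, with adjusted p up to 0.125 (without WT replicate 1 or knockout 1 replicate 2), 0.0839 (without knockout 1 replicate 2) and 0.236. DAND5 was lost without WT replicate 1 and without either knockout 1 replicate, and by DESeq2.

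TET2 acts on cytosines followed by guanine, so the 250 bases before the start of the 3 leading rises and the 3 leading falls present in the promoter table are shown with every CG in capitals. They come from RefSeq on GRCh38.p14, read on the gene's strand from 5′ to 3′, and MEST is shown by the last of its 5 windows. Of 35116 such windows in the table, which is not limited to the genes tested, 93.9% held at least 1 CG, with a median of 11. With 50 bases after the start included, the median was 25 over 11355 genes tested. On that measure LANCL3 had 31, PRRX2 24, DGKK 22, CPA4 1, ART4 7 and MEST 19.6 (mean of its 5 windows). The median on it was 12.5 over 28 genes higher by at least 2-fold and 14.6 over 208 lower by at least 2-fold. The genes shown therefore do not stand for these sets. LANCL3 (chrX:37571411-37571660, plus strand) held 25, PRRX2 (chr9:129665397-129665646, plus) 17, DGKK (chrX:50470826-50471075, minus) 21, CPA4 (chr7:130292911-130293160, plus) 0, ART4 (chr12:14843527-14843776, minus) 6 and the MEST window (chr7:130491835-130492084, plus) 20. Methylation was not measured in these files.
LANCL3: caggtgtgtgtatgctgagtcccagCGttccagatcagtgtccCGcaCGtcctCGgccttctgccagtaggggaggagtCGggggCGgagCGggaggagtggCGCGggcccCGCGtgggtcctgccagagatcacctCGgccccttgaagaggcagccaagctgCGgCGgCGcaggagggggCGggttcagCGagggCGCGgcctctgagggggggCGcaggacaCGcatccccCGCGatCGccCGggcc
PRRX2: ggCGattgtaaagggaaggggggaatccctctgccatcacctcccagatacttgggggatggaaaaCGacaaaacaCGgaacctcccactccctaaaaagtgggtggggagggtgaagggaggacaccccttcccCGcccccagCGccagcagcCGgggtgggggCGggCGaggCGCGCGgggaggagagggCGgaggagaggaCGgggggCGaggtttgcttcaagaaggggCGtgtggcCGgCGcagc
DGKK: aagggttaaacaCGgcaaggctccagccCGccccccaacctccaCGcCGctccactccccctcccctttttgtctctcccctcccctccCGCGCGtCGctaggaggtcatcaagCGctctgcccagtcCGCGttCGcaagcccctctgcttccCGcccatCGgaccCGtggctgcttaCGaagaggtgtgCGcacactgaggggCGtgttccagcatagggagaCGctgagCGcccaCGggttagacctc
CPA4: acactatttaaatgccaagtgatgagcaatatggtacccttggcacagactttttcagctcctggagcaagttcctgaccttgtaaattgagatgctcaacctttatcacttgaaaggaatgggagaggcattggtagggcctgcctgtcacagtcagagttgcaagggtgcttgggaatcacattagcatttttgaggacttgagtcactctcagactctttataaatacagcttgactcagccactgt
ART4: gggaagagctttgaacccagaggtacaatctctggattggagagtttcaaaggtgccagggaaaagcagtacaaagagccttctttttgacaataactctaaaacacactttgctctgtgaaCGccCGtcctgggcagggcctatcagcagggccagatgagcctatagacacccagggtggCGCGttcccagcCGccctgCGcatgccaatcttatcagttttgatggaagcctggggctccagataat
MEST: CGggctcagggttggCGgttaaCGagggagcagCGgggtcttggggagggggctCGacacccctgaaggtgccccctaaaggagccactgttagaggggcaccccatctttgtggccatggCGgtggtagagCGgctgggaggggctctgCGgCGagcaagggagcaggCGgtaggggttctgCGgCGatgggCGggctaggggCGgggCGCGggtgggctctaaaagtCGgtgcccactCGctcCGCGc

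Genes of collagens and extracellular matrix held the most called falls of any list. Of 58 listed genes, 50 were tested, 33 were called lower (66%) and 4 higher (8%), where 9.72% and 7.79% of all genes tested were, and 19 were lower by at least 2-fold. The median log2 fold change was -0.598, against -0.00131 over all genes tested, and the lower count stayed between 27 and 33 with 1 library left out. Besides COL3A1 and PTX3, POSTN, which encodes the matricellular protein periostin, fell from 39.8 and 38.9 to 5.4 and 4.61 CPM (log2 fold change -2.98, adjusted p 1.56e-77). THBS1, the adhesive glycoprotein thrombospondin-1, fell from 121 and 116 to 22.2 and 23.5 CPM (-2.37 on the log2 scale, adjusted p 5.02e-101), and its exons overlap FSIP1 on the opposite strand. The losses covered network-forming collagens (COL4A1, -1.25 on the log2 scale, and COL4A2, -0.65), fibrillar collagens (COL5A1, -1.33, and COL1A1, -0.47), type VI collagen (COL6A3, -1.48), the fibrillin gene FBN1 (-1.42), the crosslinking enzyme gene LOXL2 (-2.38) and the matricellular genes CCN1 (-1.90) and CCN2 (-2.91). LOXL2 shares exon sequence with ENTPD4 on the same strand. The 4 higher members were DCN, ITGA1, FBLN1 and MMP2. The laminin chains LAMB1 and LAMC1, abundant in WT, were at log2 fold changes of only -0.15 and -0.10.

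Mesenchymal regulators and markers were also called lower more than higher. Of 42 tested, 17 were lower (40.5%) and 4 higher (9.52%), with a median of -0.13, and the lower count ranged from 12 to 16 with 1 library left out and was 12 without chromosome 11. The higher count was 2 without WT replicate 1, WT replicate 2 or knockout 1 replicate 2. In a shorter list of 10 markers of mesenchymal neuroblastoma cells, 6 were lower (60%), 5 of them by at least 2-fold, and 2 higher (20%), with a median of -1.34 and 3 lower without chromosome 11. FN1, the cell-adhesion glycoprotein fibronectin (chromosome 2, 215360440 to 215436073, minus strand), fell from 325 and 306 to 57.7 and 57.6 CPM (log2 fold change -2.45, SE 0.04, adjusted p 9.29e-130). SPARC, a collagen-binding protein, fell from 227 and 234 to 140.1 and 142 CPM (-0.71 on the log2 scale), ACTA2, smooth-muscle actin, from 19.9 and 21.2 to 6.26 and 5.77 CPM (-1.77) and CD44, the hyaluronan receptor, from 32.2 and 34.6 to 15.1 and 12.5 CPM (-1.28). ACTA2 overlaps FAS on the opposite strand. The coactivators of the Hippo pathway, YAP1 and WWTR1, fell by 2.34 and 1.80 on the log2 scale, although YAP1 was at 1.03 CPM in WT. Transcription factors of the mesenchymal state moved in both directions. MEOX2 had 32 and 28 counts in WT and 0 in both knockout 1 libraries (adjusted p 7.56e-06), and FOSL1, FOSL2 and ELK4 fell by 1.39, 0.42 and 0.27 on the log2 scale, ELK4 overlapping MFSD4A on the opposite strand. TWIST1 was higher by 0.26 and the intermediate filament gene VIM by 0.09, while SNAI2 fell by 0.33. ZEB1 and ZEB2 were not called (log2 fold changes 0.03 and -0.11), and PRRX1 had 8 and 6 counts in WT and 0 and 0 in knockout 1 (adjusted p 0.0585).

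Endothelial markers and most fibroblast and pericyte markers were lower beside these losses. Of 12 endothelial markers, 10 were called lower (83.3%) and none higher by edgeR's quasi-likelihood test, with a median log2 fold change of -1.54, and 6 to 9 were lower with 1 library left out. None was higher at an unadjusted p under 0.05 or by DESeq2, which called 8 lower. Their summed level was 76.7 and 73.4 CPM in WT and 46.6 and 44.8 CPM in knockout 1, and most of it came from ENG (48.4 CPM in WT, 35.1 CPM in knockout 1). No endothelial marker was at 0 in all 4 libraries, and VWF and CLDN5 were not called. Of 11 tested markers of fibroblasts and pericytes, 8 were lower (72.7%) and 2 higher (18.2%), but their summed level was 7248 and 7279 CPM in WT and 7503 and 7388 CPM in knockout 1 and RGS5 alone had 6641 CPM in WT and 7059 CPM in knockout 1. COL1A2, a defining fibroblast gene, had 0 counts in WT and 0 and 2 in knockout 1. Of 12 immune markers 3 could be tested and none was called in either direction by edgeR or DESeq2 (1 lower at an unadjusted p under 0.05), with 6 at 0 in every library (AIF1, CD3D, CD3E, HLA-DRA, MS4A1 and TYROBP). Of 5 tested Schwann cell markers 2 were higher and 2 lower, and of 5 tested epithelial markers 2 were lower. In bulk RNA, fewer cells of a type and less RNA per cell cannot be told apart, and the part of such cells in the losses was not tested.

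TGF-beta and BMP genes moved in both directions. Of 37 tested, 8 were higher (21.6%) and 9 lower (24.3%). The 8 higher members were the ligand BMP2, the ID genes that BMP signals induce (ID1, ID2, ID3 and ID4), SMAD9 and the inhibitory SMAD6 and SMAD7. ID3 rose from 135 and 138 to 169.9 and 180.0 CPM (log2 fold change 0.36, adjusted p 2.94e-14), and SMAD6, an inhibitor of BMP signalling, by 0.64. Among the lower members, the ligand TGFB2 fell from 7.46 and 6.55 to 1.84 and 2.19 CPM, the latent binding protein LTBP1 from 15.95 and 17.1 to 9.45 and 8.12 CPM, the receptor TGFBR2 by 0.85 and SMAD3 by 0.27 on the log2 scale. Without WT replicate 1 the counts were 5 and 5, and without knockout 1 replicate 2 they were 5 and 7.

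Genes of interferon response and antigen presentation were lower wherever they were called. Of 32 tested, 10 were lower (31.2%), 7 of them by at least 2-fold, and none was higher by edgeR or DESeq2 (1 at an unadjusted p under 0.05). Most of the called members were weak in WT. IFITM3, next to IFITM2 on chromosome 11, had 2.401 and 2.604 CPM in WT and 0.532 and 0.212 CPM in knockout 1 (log2 fold change -2.77, adjusted p 4.09e-12). NLRC5, the transactivator of MHC class I genes (chromosome 16, 56989485 to 57083531, plus strand), measured 9.17 and 9.04 CPM in WT against 3.499 and 4.66 CPM in knockout 1 (-1.15 on the log2 scale). Other parts of the class I pathway were lower with it, namely the peptide transporter TAP1 (-2.49), the immunoproteasome subunit PSMB8 (-1.05, overlapping PSMB9 on the opposite strand), HLA-C (-0.86) and HLA-E (-1.34). HLA genes are near copies of each other, and reads of HLA-C and HLA-B are uncertain. B2M, the abundant light chain of class I molecules, differed by only -0.14. The count of lower members was 6 without WT replicate 2 and 12 without WT replicate 1.

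Imprinted genes other than MEST were also among the falls. Of 27 tested, 9 were lower (33.3%) and 3 higher (11.1%), with a median of -0.216. DLK1, a membrane ligand of the Notch family expressed at a high level in neuroblastoma, went from 1229.5 and 1254 to 1018 and 1107 CPM (log2 fold change -0.23, adjusted p 5.92e-11), and its neighbour on chromosome 14, the retrotransposon-derived gene RTL1, was lower by 0.77. The growth factor gene IGF2 went from 124 and 108 to 87.1 and 97.8 CPM (-0.33) and shares exons with INS-IGF2, and its clearance receptor IGF2R was lower by 0.22. NNAT, which overlaps BLCAP on the opposite strand, DDC and GNAS were higher. With 1 library left out the lower count was 6 to 9.

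**Figure D3:**
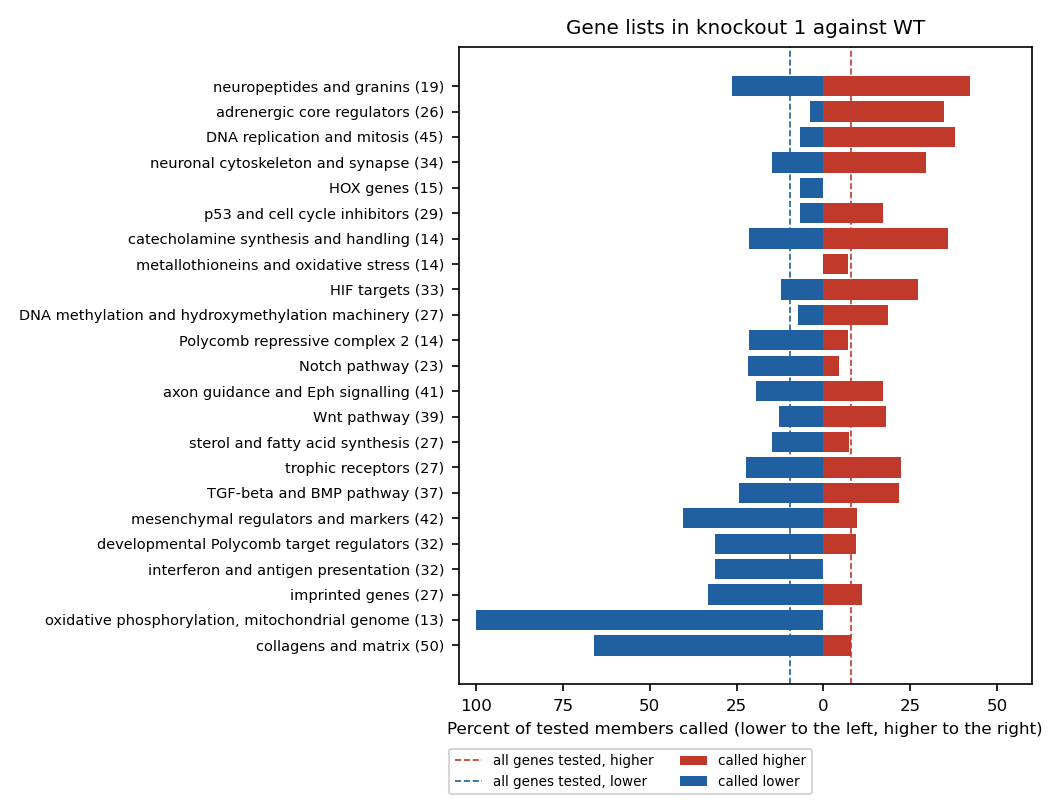
For each gene list, the percent of tested members (number in brackets) called lower (to the left, blue) and higher (to the right, red) in knockout 1, with dashed lines at 9.72% and 7.79%, the shares over all genes tested. Collagens and matrix (66%) and the mitochondrial genome (100%) extend furthest to the left, and neuropeptides (42.1%), DNA replication and mitosis (37.8%) and catecholamine genes (35.7%) furthest to the right.

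Called adrenergic regulators were mostly slightly higher. Of 26 tested, 9 were higher (34.6%) and 1 lower (3.85%), all by less than 2-fold, with a median of 0.0861. With 1 library left out, 7 to 9 were higher, and the lower gene, NBAS, lost its call with each of the 4 libraries left out in turn. TBX2, a repressor of the T-box family, rose from 57.4 and 57.03 to 74.3 and 76.8 CPM (log2 fold change 0.40, adjusted p 1.55e-11). GATA3 went from 188 and 181 to 218 and 231 CPM (0.28 on the log2 scale, adjusted p 5.92e-11), GATA2 from 611 and 619.7 to 673 and 701 CPM (0.16) and HAND1 from 79.9 and 80.1 to 91.3 and 93.8 CPM (0.21). MYCN, with 4599.8 and 4678 CPM in WT and 4548 and 4594 CPM in knockout 1, was not called (log2 fold change -0.02, SE 0.03), and neither was HAND2 (0.08, adjusted p 0.0671). In a shorter list of markers of adrenergic neuroblastoma cells, 7 of 13 tested were higher (53.8%) and 3 lower (23.1%), namely CHGB, CHGA and GAP43. The summed level of that list was 6077 and 6260 CPM in WT and 6056 and 6092 CPM in knockout 1.

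Catecholamine genes moved in both directions. DDC, which makes dopamine, rose from 309 and 317 to 369 and 377 CPM (log2 fold change 0.25, adjusted p 6.21e-11), and DBH, which turns it into noradrenaline, by 0.24. The noradrenaline transporter SLC6A2 rose from 283 and 275 to 343 and 340.3 CPM (0.29 on the log2 scale). The vesicular transporters diverged, since SLC18A1 rose from 49.9 and 46.3 to 65.96 and 67.7 CPM (0.47) while SLC18A2 fell from 5.75 and 5.85 to 2.38 and 2.15 CPM (-1.36). SLC18A2 overlaps PDZD8 on the opposite strand. TH, the rate-limiting enzyme of the pathway, was not called (0.03). In all, 5 of 14 tested were higher (35.7%) and 3 lower (21.4%).

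Secreted peptides of neuroendocrine granules were also split. Of 19 tested, 8 were higher (42.1%) and 5 lower (26.3%). The granins CHGA and CHGB went from 915 and 983 to 793 and 782 CPM and from 1079.7 and 1112 to 842 and 842 CPM (log2 fold changes -0.27 and -0.38), whereas VGF rose from 359 and 363 to 451 and 475 CPM (0.36) and SCG2 by 0.21. VIP, vasoactive intestinal peptide (chromosome 6, 152750797 to 152759765, plus strand), fell from 135 and 144 to 79.2 and 74.96 CPM (-0.86 on the log2 scale, SE 0.04, adjusted p 1.02e-45). The related peptide gene ADCYAP1 was lower by 1.38, from 4.23 CPM.

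Genes of the neuronal cytoskeleton and synapse changed by little. Of 34 tested, 10 were higher (29.4%) and 5 lower (14.7%), and all changed by less than 2-fold. The neurofilament genes NEFL and NEFM rose from 262 and 268 to 326 and 324 CPM and from 356 and 355 to 417 and 408 CPM (0.29 and 0.22 on the log2 scale). CNTN1, a neuronal adhesion molecule, and GAP43, a growth cone protein, went from 235 and 230.1 to 198 and 193 CPM and from 179 and 191 to 155 and 160.0 CPM (-0.25 and -0.24). With 1 library left out, 7 to 9 were higher and 2 to 6 lower.

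Genes of replication and of mitosis were called mostly higher, by small amounts. Of 45 genes of DNA replication and mitosis, 17 were higher (37.8%) and 3 lower (6.67%), with a median of 0.0733 and no change of 2-fold. FOXM1, a transcription factor of the G2 and M phases that overlaps ITFG2 on the opposite strand, went from 194 and 188 to 222 and 227 CPM (log2 fold change 0.24, adjusted p 3.86e-08). RRM2, a subunit of ribonucleotide reductase, went from 674 and 684 to 787 and 758 CPM (0.19), and MCM3 and MCM7, subunits of the replicative helicase, rose by 0.17 and 0.16, the latter overlapping AP4M1 on the opposite strand. Mitotic genes were among the rises, with CDC20 higher by 0.14, CCNB1 by 0.13, BIRC5 by 0.15 and PLK1 by 0.11. The 3 lower genes encode very large proteins of dividing cells, MKI67 (669 and 646 to 574 and 559 CPM), CENPF (621 and 617 to 544 and 531 CPM) and CENPE (-0.21 on the log2 scale). The count of higher genes was 7 without WT replicate 1 and 9 without knockout 1 replicate 2.

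Among regulators of the cell cycle, 5 of 29 tested p53 targets and inhibitors were higher (17.2%) and 2 lower (6.9%). CCND1, cyclin D1, rose from 578 and 559 to 675 and 675 CPM (0.25 on the log2 scale, adjusted p 2.84e-12), with exons overlapping LTO1 on the opposite strand. The inhibitor CDKN2C rose from 74.98 and 74.5 to 88.1 and 95.1 CPM and the p53 target TP53I3 from 41.6 and 41.8 to 55.8 and 55.2 CPM (overlapping FAM228B on the opposite strand), while the p53 target BTG2 went from 18.95 and 19.1 to 14.7 and 15.3 CPM. CDKN1A, a classical p53 target, was not called (-0.07).

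The enzymes that write and remove DNA methylation showed small differences. Of 27 genes of this machinery, 5 were higher (18.5%) and 2 lower (7.41%), all by less than 2-fold, with a median of 0.0162, and 2 to 4 were higher with 1 library left out. DNMT1 had 409 and 416 CPM in WT and 414 and 412 CPM in knockout 1, and the groups overlapped. DNMT1, DNMT3A, DNMT3B and TET1 were not called (log2 fold changes 0.00, -0.02, 0.12 and -0.03). TET3 went from 138 and 129.6 to 122 and 126 CPM (-0.11, adjusted p 0.0469), a call that 8 of 13 alternative settings did not keep. CXXC5, a CG-binding protein, rose from 79.7 and 80.2 to 92.6 and 94.5 CPM (0.23), and the methyl-CG reader ZBTB38 by 0.16. GADD45A, which has been linked to demethylation, was lower by 0.24 and was not called without WT replicate 2 (adjusted p 0.139).

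No core subunit of PRC2 was called. EZH2, the catalytic subunit, had 98.7 and 103 CPM in WT and 99.4 and 102 CPM in knockout 1. SUZ12 had 142 and 139.5 CPM in WT against 146 and 135 CPM, and EED 34.5 and 40.8 CPM against 37.4 and 39.1 CPM. Their log2 fold changes were -0.00, -0.00 and 0.02 (SE 0.04, 0.04 and 0.06). The list held PRC2 genes and the demethylase genes KDM6A and KDM6B, which are not part of the complex. Of its 14 tested genes, 1 was higher (7.14%), the accessory subunit PHF19 (0.15). The 3 lower (21.4%) were LCOR (-0.16), KDM6B (-0.14) and the alternative catalytic subunit EZH1 (-0.19). Each of these 4 calls was lost when 1 or another library was left out, with adjusted p-values up to 0.133, 0.208, 0.137 and 0.423. All 4 were lost without WT replicate 1 and without knockout 1 replicate 2, so that no gene of the list was called there. All but LCOR were also lost without WT replicate 2.

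Most HOX genes were not detected in either group. Of 39 HOX genes, 23 were at 0 in all 4 libraries and 15 were tested, of which HOXC10 was lower (6.67%; 20.2 and 20.8 CPM to 17.02 and 17.7 CPM, log2 fold change -0.24) and none was higher by edgeR or DESeq2 (1 at an unadjusted p under 0.05). HOXC10 was lost without each library in turn. Of 71 developmental regulators known as Polycomb targets, 32 were tested, 10 were lower (31.2%) and 3 higher (9.38%), and 26 were at 0 in all 4 libraries. TBX3, a T-box repressor (chromosome 12, 114670255 to 114684175, minus strand), rose from 269.6 and 274 to 375 and 372 CPM (log2 fold change 0.46, adjusted p 1.22e-28). WT1, a zinc finger factor of mesoderm, fell from 4.87 and 5.08 to 1.48 and 2.37 CPM (-1.36), POU4F1, a factor of sensory neurons, from 66.1 and 59.4 to 50.4 and 50.6 CPM (-0.31), and SOX9 from 47.8 and 41.1 to 35.3 and 35.9 CPM (-0.32). SOX9 was at an adjusted p of 0.0642 without WT replicate 1, and the count of lower members was 4 without knockout 1 replicate 1 and 5 without knockout 1 replicate 2 or WT replicate 2.

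Receptors and ligands changed in several pathways. In the Notch pathway 5 of 23 tested were lower (21.7%), and also with any 1 library left out. The receptor NOTCH1 fell from 6.62 and 7.42 to 2.53 and 2.33 CPM (log2 fold change -1.53, adjusted p 1.04e-14), the ligand JAG1 from 2.15 and 3.103 to 0.704 and 0.424 CPM (-2.23) and the coactivator MAML2 from 26.7 and 22.6 to 14.4 and 13.3 CPM (-0.83). The target HES1 was the 1 member called higher (4.35%; 0.38), and it was not called by DESeq2, without WT replicate 2 or without knockout 1 replicate 1. In the Wnt pathway 7 of 39 were higher (17.9%) and 5 lower (12.8%). CTNNB1, beta-catenin, rose from 265 and 267 to 308 and 308 CPM (0.21), the secreted inhibitor DKK1 from 67.1 and 66.04 to 80.3 and 80.9 CPM (0.28), and the Wnt target AXIN2 by 0.49. The receptor FZD4 fell from 5.24 and 6.85 to 2.95 and 2.72 CPM (-1.10) and DKK3 from 27.3 and 27.1 to 15.3 and 14.1 CPM (-0.89), both on chromosome 11 and both overlapping a gene on the opposite strand (PRSS23 and USP47). Without chromosome 11, 3 Wnt genes were lower.

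Guidance genes included an opposed receptor and ligand. CXCR4, a chemokine receptor (chromosome 2, 136114349 to 136118149, minus strand), rose from 18.8 and 16.7 to 35.6 and 36.3 CPM (log2 fold change 1.02, SE 0.07, adjusted p 1.04e-28), and its ligand CXCL12 fell from 18.7 and 18 to 9.34 and 8.21 CPM (-1.07, adjusted p 3.44e-19). The netrin receptor UNC5B rose from 305 and 309 to 399 and 415 CPM (0.41), and the semaphorin coreceptor NRP1 fell from 68.6 and 67.5 to 39.1 and 37.8 CPM (-0.82). In all, 7 of 41 were higher (17.1%) and 8 lower (19.5%), with 4 higher without knockout 1 replicate 2. Of 27 trophic receptors and ligands, 6 were higher (22.2%), among them the neurotrophin receptor NGFR (0.50), and 6 lower (22.2%). The higher count was 3 without knockout 1 replicate 2 and 4 without WT replicate 2. The receptors for platelet-derived growth factor were lower, PDGFRA from 10.7 and 9.898 to 2.32 and 2.61 CPM (-2.06) and PDGFRB from 43.97 and 41.7 to 27.4 and 27.2 CPM (-0.65). PTN, pleiotrophin, went from 186 and 195 to 156 and 148 CPM (-0.33) and IGF1R from 156 and 148 to 122 and 124 CPM (-0.31).

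The HIF factors differed between themselves. EPAS1, which encodes HIF-2alpha (chromosome 2, 46293667 to 46386697, plus strand), fell from 21.9 and 19.9 to 5.21 and 6.11 CPM (log2 fold change -1.88, SE 0.11, adjusted p 5.64e-40). HIF1A had 846 and 825 CPM in WT and 803 and 779 CPM in knockout 1, and its call (adjusted p 0.0482) was lost in 10 of 13 alternative settings. Of 33 HIF genes and targets tested, 9 were higher (27.3%) and 4 lower (12.1%), and 3 were higher without WT replicate 1. AK4, a mitochondrial adenylate kinase, rose from 17.7 and 17.9 to 28.05 and 28.5 CPM (0.67) and the neuronal enolase gene ENO2 from 332 and 341 to 410.0 and 408 CPM (0.28), while the glucose transporter gene SLC2A3 fell from 18.6 and 19.96 to 12.9 and 13.5 CPM (-0.54). The zinc exporter SLC30A1 was the 1 of 14 tested genes of metallothioneins and oxidative stress called higher (7.14%; 40.4 and 39.7 CPM to 47.8 and 47.4 CPM), and none was lower by edgeR or DESeq2, nor at an unadjusted p under 0.05. Among sterol and fatty acid genes, 2 of 27 were higher (7.41%), among them STARD4 (0.13), and 4 were lower (14.8%), led by SC5D (-0.25) and MVK (-0.36). MVK overlaps MMAB on the opposite strand. With 1 library left out 0 to 1 were higher and 2 to 3 lower, and DESeq2 called 4 higher and 3 lower.

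All 13 protein genes of the mitochondrial genome were lower in knockout 1, with a median log2 fold change of -0.401, and all 13 were called with any 1 library left out. MT-ND1, a subunit of complex I, had 1756 and 1827 CPM in WT and 1325 and 1302 CPM in knockout 1 (-0.45 on the log2 scale, adjusted p 2.35e-36). MT-CO2, a subunit of complex IV, measured 3637 and 3750.2 CPM in WT against 2788 and 2759 CPM in knockout 1 (-0.41), MT-ND4 3648 and 3739 CPM in WT against 2826 and 2769 CPM in knockout 1 and MT-ATP6 1600.2 and 1701 CPM in WT against 1234 and 1163 CPM in knockout 1. These genes are transcribed from 1 small genome and are not independent of each other. Against the same WT libraries the median was -0.579 in knockout 2 and 0.281 in knockout 3. In direct tests the median log2 difference was 0.18 from knockout 2 and -0.683 from knockout 3, with 10 of the 13 called above knockout 2 and all 13 below knockout 3.

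Knockout 1 was next tested directly against the other knockouts. Against knockout 2, 3727 genes were called (26.5%), 1911 with knockout 1 higher and 1816 with it lower, 325 of them by at least 2-fold. Against knockout 3, 1167 genes were called (8.3%), 547 higher and 620 lower, 23 of them by at least 2-fold, and 564 to 797 were called with 1 library left out. Of the 276 genes lower than WT by at least 2-fold, 153 differed from knockout 2 and 11 from knockout 3. These genes had a median of only 0.6475 CPM in knockout 1, so those not called between knockouts cannot be taken as equal. The comparisons of each knockout with WT share the WT libraries, so they are given as values and not set against each other. COL3A1, for example, was at 27.2 and 27.9 CPM in knockout 2 and 12.4 and 13.3 CPM in knockout 3, and knockout 1 was lower than knockout 2 by 0.89 on the log2 scale (adjusted p 5.86e-21) and not called against knockout 3 (0.21). FN1 was at 132 and 137 CPM in knockout 2 and 54.3 and 54.7 CPM in knockout 3, and MEST at 3.01 and 2.605 CPM in knockout 2 and 4.08 and 3.802 CPM in knockout 3. MYCN was at 2815 and 2837 CPM in knockout 2 and 4699.9 and 4715 CPM in knockout 3, so that knockout 1 was higher than knockout 2 by 0.69 (adjusted p 3.99e-68).

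For 173 genes (1.23%) knockout 1 was called against WT and differed in the same direction from both other knockouts, 73 above (0.519%) and 100 below (0.711%). Among the rises LRRC55 was at 213 and 222 CPM in knockout 2 and 414 and 401 CPM in knockout 3, and knockout 1 exceeded them by 1.17 and 0.26 on the log2 scale (adjusted p 1.98e-86 and 2.22e-11). SLC38A11 exceeded them by 0.47 and 0.56, and SLC30A4 by 0.65 and 0.66. HPCA, a calcium sensor of neurons that overlaps TMEM54 on the opposite strand, was at 3.57 and 3.09 CPM in WT, 6.69 and 6.64 in knockout 1, 3.93 and 4.54 in knockout 2 and 4.89 and 4.76 in knockout 3. The stress kinase SGK1 had 49.3 and 47.5 CPM in WT, 90.6 and 84.5 in knockout 1, 76.7 and 76.97 in knockout 2 and 76.6 and 78.8 in knockout 3, a rise of 0.85 over WT. AMHR2, the receptor for anti-Müllerian hormone, rose by 0.92 from under 2 CPM and was lost without WT replicate 1 and without knockout 1 replicate 1 (adjusted p up to 0.157).

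Among the falls, SPOCK1, a matrix proteoglycan, was at 20.2 and 18.6 CPM in WT, 8.71 and 7.98 in knockout 1, 13.1 and 12.7 in knockout 2 and 12.01 and 9.67 in knockout 3 (log2 fold change against WT -1.22, adjusted p 2.24e-23). ETS1, a transcription factor (chromosome 11, 128458761 to 128587558, minus strand), had 39.4 and 37.1 CPM in WT, 18.9 and 17.9 in knockout 1, 29.7 and 28.7 in knockout 2 and 23.6 and 22.1 in knockout 3, and knockout 1 lay below the others by 0.67 and 0.32 on the log2 scale. ANK3, which anchors channels at the axon initial segment, had 105 and 104 CPM in WT, 65.7 and 64.1 in knockout 1, 76.7 and 76.4 in knockout 2 and 75.5 and 78.9 in knockout 3. The calcium-binding protein gene RCN1 was lower than WT by 0.87, the dynein gene DNAH2 by 0.84 and the mitochondrial malic enzyme gene ME3 by 0.66. ME3 was at an adjusted p of 0.0534 without knockout 1 replicate 1. In knockouts 2 and 3 most of these genes lay between WT and knockout 1, and ME3 lay near WT. ETS1, RCN1 and ME3 are on chromosome 11.

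**Figure D4:**
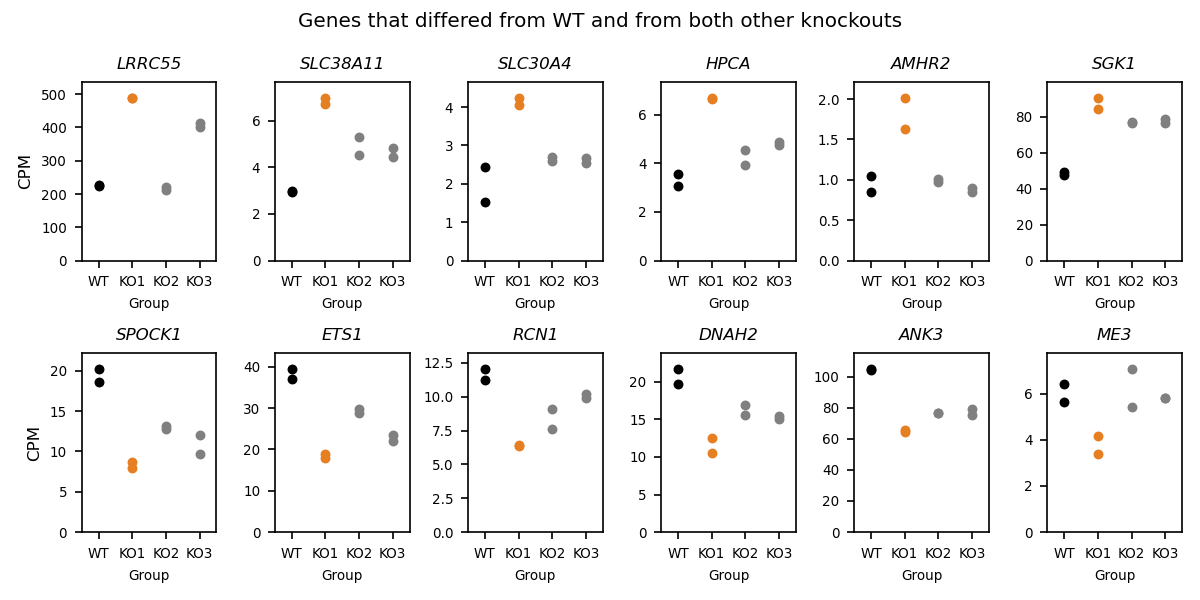
CPM of each library (1 point each, axis from 0) in WT, knockout 1 (KO1, orange), knockout 2 (KO2) and knockout 3 (KO3) for the 6 rises and 6 falls with the largest change against WT among genes that also differed from both other knockouts. In each panel the 2 knockout 1 libraries lie outside the range of the other 6 libraries.

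The genes lower in knockout 1 were unevenly placed along the genome. On chromosome 11, 190 of 799 genes tested were lower (23.8%) and 57 higher (7.13%), against 8.87% and 7.83% on the other chromosomes. The share was highest on its long arm from 90 Mb to the end of the chromosome in GRCh38 coordinates, where 109 of 201 were lower (54.2%), 2 were higher and 181 had a log2 fold change below 0. The median there was -0.207, with -0.201 and -0.212 for the 2 knockout 1 libraries taken singly, and before 90 Mb it was -0.0324. That part was not uniform, since 10 Mb bins of the short arm were also lower, with 19 of 52 genes lower at 10 to 20 Mb (36.5%, median -0.152) and 11 of 35 at 30 to 40 Mb (31.4%, median -0.121), while the 215 genes at 60 to 70 Mb had a median of 0.0643. From 90 Mb to the end, the median against the same WT libraries was -0.0842 in knockout 2 and -0.099 in knockout 3. In direct tests the median difference of knockout 1 from 90 Mb to the end was -0.139 from knockout 2 and -0.122 from knockout 3. Among 10 Mb bins with at least 10 genes on the autosomes and X, the lowest median, -0.278, was at 100 to 110 Mb, where 22 of 29 genes were lower, led by YAP1 (-2.34), MMP1 (-2.03), which encodes an interstitial collagenase, and CASP4 (-1.56). The region and its boundary were chosen after the values were seen.

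Chromosome 11 also held 32 of the 100 genes below both other knockouts, 4.01% of its genes tested against 0.513% over all other chromosomes. Of genes of the lists above that lie there, MAML2 is an example inside the part from 90 Mb. CD44, IFITM2, IFITM3, FZD4, DKK3, WT1 and IGF2 lie before it. The falls of these genes ranged from 0.33 (IGF2) to 3.46 (IFITM2) on the log2 scale. With the genes of chromosome 11 left out before normalisation, 2166 genes were called, 969 higher and 1197 lower, and 278 changed at least 2-fold. DNA copy number was not measured in these files, and its part in the shift was not tested. On chromosome Y, where only 11 genes were tested, 9 were lower (81.8%), with a median of -0.444, and 3 lay below both other knockouts (27.3%). Against WT the median on chromosome Y was -0.0269 in knockout 2 and -0.288 in knockout 3. Chromosomes 14 and 13 had the highest shares of lower genes among the autosomes after chromosome 11, 16% and 15.2%. Their median log2 fold changes were -0.0676 and -0.0274, with 0.0318 and -0.0308 in knockout 2 and -0.0581 and -0.0357 in knockout 3. The highest bin median was 0.186 on chromosome X at 60 to 70 Mb over 14 genes. On chromosome 19 at 50 to 60 Mb, which is rich in zinc finger genes, 30 of 176 genes were higher and 2 lower, with a median of 0.16.

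**Figure D5:**
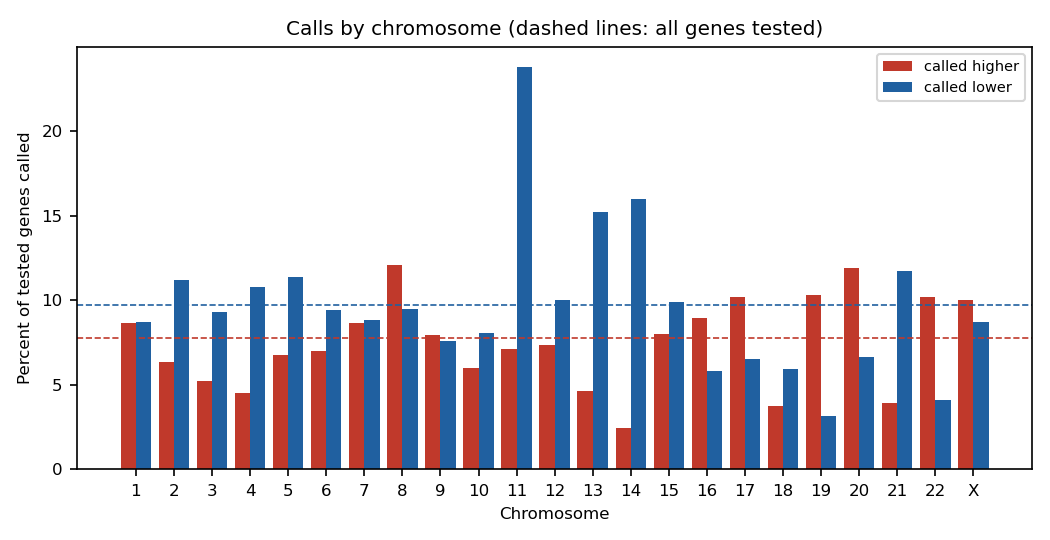
Percent of tested genes called higher (red) and lower (blue) in knockout 1 on chromosomes 1 to 22 and X, with dashed lines at 7.79% and 9.72% for all genes tested. Among these chromosomes the blue bar is highest for chromosome 11 (23.8%), and chromosome Y (9 of 11 genes lower) is not drawn. The bars of chromosome 19 stand at 10.3% higher and 3.13% lower.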

How the data were processed

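Strand-specific, oligo-dT based RNA-seq libraries of SK-N-BE2 cells were used. The authors deposited counts per protein-coding gene, made with featureCounts 2.0.5 in paired mode with no strand option and named by the GENCODE 33 annotation, per the file headers. Reads were mostly counted singly, so a fragment usually adds 2 counts. The submitters' processing notes name Trimmomatic 0.36, STAR 2.6.1d and the GRCh38 build. No normalisation had been applied to the deposited counts.

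From these counts, edgeR 4.0.16 in R 4.3.3 was fitted to the 8 libraries of batch 2 (WT and knockouts 1, 2 and 3), with filterByExpr by group, TMM normalisation and the quasi-likelihood test with robust dispersion, leaving 4 residual degrees of freedom. Each gene's spread was drawn strongly towards a spread shared over genes, with a median of 218 prior degrees of freedom. Of 19923 genes in the files, 14061 were tested and 5862 were not. P-values were adjusted by Benjamini-Hochberg over all genes tested, with a threshold of 0.05. DESeq2 1.42.0, other size factors, no filter on low counts, halved counts, fits to the compared groups alone, a replicate block and leaving out each library were alternatives, and leaving out chromosome 11 was chosen after seeing the data. The fit was tested on simulated data.

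Genes were named by a rule. It took TET, DNMT, PRC2, HIF and adrenergic key genes, and up to 4 called members of each list with the smallest adjusted p. It also took the 12 largest rises and falls of at least 1 CPM whose knockout 1 libraries lay outside the WT range. From that set before the limit of 12, it took the 6 largest rises and falls that also differed from both other knockouts. The comparison, the rule and the gene lists were chosen with earlier results of these data known. Other list members, the chromosome 11 region and its genes were named after their values were seen. Promoters were read from RefSeq, which gave a window for 11355 of the genes tested. CG content over gene sets was described without a test. A window was found for 75.4% of the genes lower by at least 2-fold and 80.8% of all genes tested. Their median CG counts were 14.6 and 25, and both were 26 among genes with a mean of at least 10 CPM (23 and 7766 genes). The median was 12.5 over 28 genes higher by at least 2-fold, also below that of all genes tested. The part of expression level in these contrasts was not tested. VEGFA and H19 of the lists were not analysed here, and some genes that the rule names are not reported here. Depth limits the precision of genes with few counts, and counting intervals cover counting error only.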

Additional observations from a re-analysis of the deposited data

Results flagged for a closer look

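Direct tests of knockout 1 against the other knockouts (edgeR's quasi-likelihood test, adjusted p under 0.05) set apart 37 of the key and most changed genes, each given here against 1 of them as a log2 difference, positive where knockout 1 was higher. Of these, 12 were chosen because they differ from both other knockouts, so their difference is a description, and the other 25 are from 36 genes tested. Over all genes tested, 26.5% differed from knockout 2 and 8.3% from knockout 3. The 25 differed from at least 1 of the knockouts, and some of the 36 were picked for a large change against WT. These shares are therefore no matched background for the 36. Against knockout 2, knockout 1 was higher for PRRX2 by 2.08, DAND5 by 1.93, LRRC55 by 1.17, LANCL3 by 0.84, BMP2 by 0.73, MYCN by 0.69, HPCA by 0.65, SGK1 by 0.19, DNMT3A by 0.13, DNMT1 by 0.11 and HAND2 by 0.11. It was lower for SP100 (-2.90), CAVIN2 (-1.70), IL1R1 (-1.64), CRIM1 (-1.17), COL3A1 (-0.89), ME3 (-0.71), EPAS1 (-0.69), ETS1 (-0.67), SPOCK1 (-0.64), DNAH2 (-0.49), TET3 (-0.33), TET2 (-0.19) and EZH2 (-0.15).

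Against knockout 3, knockout 1 was higher for AMHR2 by 1.05, LEF1 by 0.86, SYT17 by 0.80, SLC30A4 by 0.66, SLC38A11 by 0.56, DCN by 0.27, TET1 by 0.26, GATA3 by 0.17 and HIF1A by 0.14. It was lower for KDR (-1.74), RCN1 (-0.66), MEST (-0.63) and ANK3 (-0.25). Of 75 further genes named for a list, 53 differed between knockout 1 and knockout 2 and 32 between knockout 1 and knockout 3. These genes were picked for a small adjusted p against WT, so the shares of 26.5% and 8.3% over all genes are no matched background for them.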

How the results depend on the processing

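With another tool or setting the number of genes called between knockout 1 and WT ranged from 2084 (DESeq2) to 2484 (DESeq2-type size factors in edgeR), and it was 2166 without chromosome 11, a setting chosen after seeing the data. It ranged from 1375 to 1920 with 1 library left out, where the fit takes the lone library to vary like the other groups. The number against knockout 2 ranged from 2543 to 3026 and that against knockout 3 from 564 to 797 with 1 library left out, and the number changed at least 2-fold against WT from 241 to 270. The median over chromosome 11 from 90 Mb was -0.198 among genes of at least 10 CPM and ranged from -0.217 to -0.201 with 1 library left out, where replicates differed by an SD of 0.00778. Replicate numbers did not pair the libraries, since the correlation of same-numbered deviations was -0.0279 between WT and knockout 1 and -0.0365 to 0.0739 over all pairs of groups. With a replicate block 2228 genes were called against WT, 3567 against knockout 2 and 984 against knockout 3. Of 125 genes chosen by the naming rule and tested, 116 were called, 96 of them in every setting run, and no called gene changed direction. Of the genes not called, DNMT1, DNMT3A, EED, EZH2, SUZ12 and TET1 changed sign around 0 between settings. Those that lost their call under some setting, such as TET2, TET3, HIF1A and SOX9, are given with their values beside the results or lie among genes named for a list, and the cause was not tested. With fewer than 10 counts in a group, as for PECAM1, CPA4 and ART4 in knockout 1, only a counting interval bounds the size of a fall.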
